A study of Mus musculus with 3 samples.

Results

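Hypoxia and glycolysis genes were followed cell by cell, with single-cell RNA-Seq, in tumors of B16-F10 cells, a transplanted mouse melanoma line. The 10 genes are Egln3, Car9, Slc2a1, Pgk1, Ldha, Vegfa, Adm, Bnip3, Ndrg1 and Ankrd37, found by symbol among 32285 genes, and each was present in all 3 libraries. There were 2 libraries labelled shMib2, replicates 1 and 2, which carry different shRNAs against the ubiquitin ligase Mib2, and 1 library labelled shCtrl, which carries a control shRNA. All were from subcutaneous tumors grown in C57BL/6J mice of 6 to 8 weeks, and each library pooled the tumors of 3 mice, so that a library is 1 sample and the spread between mice was not measured. The host mice kept their own Mib2, and only the injected tumor cells carry an shRNA. The depth of the libraries was 190904274, 203298455 and 243926188 unique molecular identifiers (UMIs, tags that each count 1 captured RNA molecule), in 9428, 8388 and 9558 cell barcodes, in the order shMib2 replicate 1, shMib2 replicate 2 and shCtrl. Between 20 and 30 barcodes were shared by any pair of libraries.

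Melanoma cells were taken as cells with at least 5000 UMIs of which Dct and Pmel, enzymes or structural proteins of pigment granules, made up at least 0.5%. The rule was met by 6554, 3933 and 8100 barcodes in the libraries labelled shMib2 replicate 1, shMib2 replicate 2 and shCtrl. Barcodes that failed the quality filters or were scored as doublets were removed. A further 6, 3 and 1 cells lay in clusters named for another cell class and were left out. This left 5912, 3479 and 7409 melanoma cells, or 16800 of 27374 barcodes. Their median depth was 24815, 43623 and 26296 UMIs. Few cells lay at the limits, with 11, 16 and 13 cells between 5000 and 6000 UMIs and 107, 51 and 101 cells with 0.5 to 0.6% of Dct and Pmel. Levels are given in CPM, the UMIs of a gene for every 1000000 UMIs of the cells summed. All 7 melanoma markers were detected, at a summed level of 18246, 19405 and 18805 CPM, most of which is Dct and Pmel, fixed by the rule. Of the markers the rule did not use, the melanin enzyme Tyrp1 was at 3269, 3198 and 3033 CPM in these cells. The 9 T cell markers summed to 4.94, 4.73 and 3.45 CPM and the B cell markers to 4.15, 4.66 and 4.57 CPM. Endothelial markers summed to 57.1, 53.0 and 62.2 CPM, and those of pericytes or smooth muscle to 18.2, 16.1 and 19.9 CPM. Other lists were less even between libraries. Fibroblast markers summed to 34.7, 19.2 and 3.13 CPM, phagocyte markers to 3.09, 3.09 and 0.833 CPM and NK markers to 2.32, 1.89 and 0.193 CPM. Clusters named by their markers gave 564, 834 and 80 T cells, 336, 505 and 48 NK cells, 168, 299 and 12 myeloid cells, and 322, 301 and 26 stromal cells in the same order. The library labelled shCtrl therefore held few cells outside the tumor cells, and its values in those classes rest on few UMIs. Mib2 itself was detected at 3.12 CPM (95% Poisson interval 2.85 to 3.41) in shMib2 replicate 1, 2.70 CPM (2.45 to 2.97) in shMib2 replicate 2 and 2.47 CPM (2.26 to 2.69) in shCtrl. Because Mib2 RNA was no lower under the shRNAs, the libraries are named by their labels throughout, and no direction below is assigned to a loss of Mib2. All intervals cover counting error only.

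Cells sense oxygen through hypoxia-inducible factor (HIF). When oxygen is present, prolyl hydroxylases mark its alpha subunit for recognition by Vhl and degradation. When oxygen falls, the subunit is stable, pairs with Arnt and binds short DNA motifs near its target genes, which shift the cell from respiration to glycolysis, export acid, call in vessels and remove mitochondria. In solid tumors the genes are known to mark regions far from vessels. Among the genes followed here, Egln3 is a prolyl hydroxylase of HIF that HIF itself induces. Car9 is a membrane carbonic anhydrase that handles acid outside the cell. Slc2a1 encodes the glucose transporter GLUT1, Pgk1 a glycolytic kinase that yields ATP, and Ldha the lactate dehydrogenase subunit that makes lactate from pyruvate. Vegfa and Adm are secreted and act on vessels. Bnip3 sits in the mitochondrial outer membrane and directs mitophagy. Ndrg1 is a cytoplasmic protein induced by hypoxia and metal chelation, and Ankrd37 is an ankyrin repeat protein known as a HIF target.

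The core of the HIF-binding motif is ACGTG or GCGTG, and windows of 250 bases that end just before the annotated start of transcription were searched for both on both strands. RefSeq promoters of mouse build GRCm38.p6 gave 11 windows for 9 of the 10 genes, and 10 windows of 9 genes held at least 1 match. Of all 32817 promoter windows of this length, 38.6% held either motif, 16.6% held ACGTG, 28.1% held GCGTG, and 13.5% held 2 or more sites. Matches that overlap, such as both readings of the palindrome CACGTG, were counted as 1 site. The windows of the genes whose levels move most closely together in the melanoma cells, together with Ankrd37, are printed 5′ to 3′ on the strand of the gene, with the matches in capitals. They lie at 4:43506776-43507025 (Car9, plus strand), 7:46845554-46845803 (Ldha, plus strand), X:106186850-106187099 (Pgk1, plus strand), 7:138909507-138909756 (Bnip3, minus strand) and 8:45999851-46000100 (Ankrd37, minus strand).
Car9: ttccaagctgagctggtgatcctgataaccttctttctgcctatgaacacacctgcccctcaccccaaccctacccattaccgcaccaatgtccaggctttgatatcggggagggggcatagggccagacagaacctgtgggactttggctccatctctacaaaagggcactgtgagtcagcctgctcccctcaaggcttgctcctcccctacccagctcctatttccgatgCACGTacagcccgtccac
Ldha: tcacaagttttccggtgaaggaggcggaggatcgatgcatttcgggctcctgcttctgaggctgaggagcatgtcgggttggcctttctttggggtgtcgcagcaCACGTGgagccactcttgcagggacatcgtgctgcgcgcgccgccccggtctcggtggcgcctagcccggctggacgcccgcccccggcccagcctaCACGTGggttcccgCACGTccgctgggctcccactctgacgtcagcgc
Pgk1: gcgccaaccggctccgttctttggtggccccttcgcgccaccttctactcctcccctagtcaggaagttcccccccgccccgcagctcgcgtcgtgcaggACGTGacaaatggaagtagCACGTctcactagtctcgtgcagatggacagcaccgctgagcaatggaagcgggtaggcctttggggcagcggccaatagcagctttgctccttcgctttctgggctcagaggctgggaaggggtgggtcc
Bnip3: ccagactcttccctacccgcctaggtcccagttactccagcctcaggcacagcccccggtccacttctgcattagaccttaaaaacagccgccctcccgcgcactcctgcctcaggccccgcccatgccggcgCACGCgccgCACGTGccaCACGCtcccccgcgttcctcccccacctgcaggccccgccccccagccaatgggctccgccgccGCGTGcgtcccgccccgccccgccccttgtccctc
Ankrd37: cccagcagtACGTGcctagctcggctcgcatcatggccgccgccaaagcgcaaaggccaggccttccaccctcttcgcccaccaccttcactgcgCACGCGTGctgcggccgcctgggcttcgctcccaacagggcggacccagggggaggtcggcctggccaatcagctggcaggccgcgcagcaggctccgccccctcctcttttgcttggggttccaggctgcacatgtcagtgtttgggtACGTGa
The Car9 window held 1 site, 18 bases before the start. The printed Ldha window held 3 sites and that of Pgk1 2, all ACGTG, and the Bnip3 window held 4 and that of Ankrd37 3, with both motifs. A second window of Ldha, not printed, held 1 site, GCGTG. One of the Ankrd37 sites is a pair of overlapping GCGTG matches. The window of Vegfa that borders the 5′ end of the gene held no match. Its other window, at 17:46025164-46025413, lies inside the gene (17:46016993-46032369, minus strand) and held 2 sites. The windows of Ldha and Ankrd37 also lie inside the annotated span of their genes. A match is a string of letters and not evidence of binding, and no binding was measured here.

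The first comparison asks whether the tumors labelled shMib2 differed from those labelled shCtrl in these genes. In melanoma cells the levels differed little between the 3 libraries, apart from Vegfa, Ankrd37 and the rare Egln3. Bnip3 was at 328.8 and 330.0 CPM in shMib2 replicates 1 and 2, against 324.2 CPM in shCtrl. Car9 was at 213.9 and 204.4 CPM in the libraries labelled shMib2, against 214.0 CPM in shCtrl, and Slc2a1 at 72.6 and 72.8 CPM, against 74.6 CPM. In each of these 3 genes the libraries lay close together. Ndrg1 was at 47.5 and 48.7 CPM in the libraries labelled shMib2, against 46.2 CPM in shCtrl. Adm had 80.2 and 78.4 CPM in libraries labelled shMib2, against 75.8 CPM in the library labelled shCtrl. Egln3 was rare in these cells, with 166 and 134 UMIs in the libraries labelled shMib2, or 1.06 and 0.848 CPM, against 188 UMIs, or 0.905 CPM, in shCtrl, and the groups overlapped.

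The glycolytic enzymes were slightly lower in libraries labelled shMib2, within the error of the test. Pgk1 was at 2546 and 2503 CPM in the libraries labelled shMib2, against 2666 CPM in shCtrl, and Ldha at 2398 and 2304 CPM, against 2459 CPM. Both genes have processed pseudogene copies, and reads shared with these copies may have been left out or split by the counting. Vegfa stood furthest apart, at 126.6 and 109.3 CPM in the libraries labelled shMib2, against 95.4 CPM in shCtrl. Its mean ratio was 1.24 ± 0.129 (SD of the 2 single ratios). Both ratios share the lone shCtrl value, so the SD holds none of the spread of shCtrl. Ankrd37 was at 27.7 and 26.3 CPM in libraries labelled shMib2, against 30.6 CPM in the library labelled shCtrl. Both libraries labelled shMib2 lay above shCtrl in Vegfa and below it in Ankrd37, as they did in Pgk1 and Ldha by a smaller ratio.

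**Figure D1:**
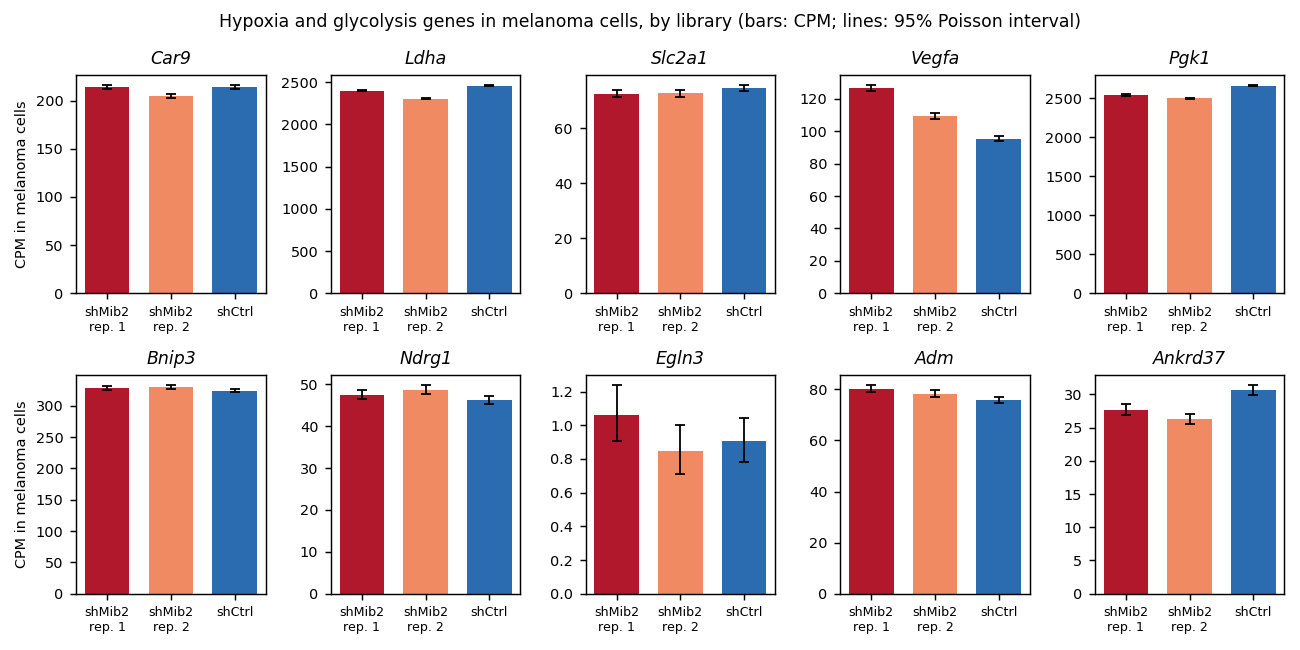
Level of each gene in melanoma cells, in CPM from 0, for shMib2 replicate 1, shMib2 replicate 2 and shCtrl, 1 panel per gene with its own axis. Bars are the CPM of the summed cells and lines the 95% Poisson interval. Vegfa is higher in both libraries labelled shMib2 (126.6 and 109.3 CPM, against 95.4 CPM), Ankrd37 is lower, and the intervals of Egln3 are wide.

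None of these differences passed the test. By edgeR's quasi-likelihood test over all 15694 genes, 0 of the 10 genes were called at an adjusted p of 0.05, where 0.478% of all genes were called (74 higher and 1 lower, against 186 and 77 by DESeq2), and DESeq2 also called 0 of them. The highest and the lowest log2 fold change of the 10 were those of Vegfa and Ankrd37. Vegfa had a log2 fold change of 0.26 (SE 0.07, adjusted p = 0.223), and Ankrd37 one of -0.23 (SE 0.05, adjusted p = 0.165). The other log2 fold changes lay between -0.12 for Pgk1 and 0.03 for Egln3, whose SE was 0.20. A change of the size of the SEs cannot be told from none here, since the lone shCtrl library is assumed to vary like the libraries labelled shMib2. Related lists behaved alike, with 0 of 22 glycolysis genes called, 0 of 22 tested of 24 other hypoxia-induced genes, and 0 of 10 genes of HIF and its regulators, at median log2 fold changes of -0.04, -0.02 and -0.07. The interferon list was the one with calls, 6 of 10, among them Gbp2, an interferon-induced GTPase, at 2.25 (SE 0.11, adjusted p = 0.0064), and H2-D1, a class I antigen-presenting molecule, at 0.78 (SE 0.05, adjusted p = 0.011).

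Within every library, the melanoma cells differed widely from each other in these genes. To compare cells of unequal depth, each cell was thinned at random to 5000 UMIs. Ldha and Pgk1 were then found in 99.8% to 99.9% of melanoma cells of every library. Bnip3 was found in 61.5%, 59.0% and 62.3% of the cells of shMib2 replicate 1, shMib2 replicate 2 and shCtrl, Car9 in 47.9%, 46.8% and 48.6%, Vegfa in 36.9%, 34.3% and 32.6%, and Slc2a1 in 28.9%, 27.9% and 29.95%. Ndrg1 was found in 16.4%, 16.0% and 16.5%, and Ankrd37 in 12.5%, 12.0% and 13.1%. Egln3 was found in 0.524%, 0.460% and 0.459% of the cells. Before thinning Car9 was seen in 75.7%, 79.1% and 78.0% of cells and Ndrg1 in 39.3%, 46.6% and 40.9%, so that the share of cells without a UMI depends on depth and is no share of cells that lack the RNA.

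How unevenly the RNA was spread also separated the genes. The top 10% of melanoma cells by UMIs of a gene held 19.3% to 20.2% of the UMIs of Ldha and Pgk1, which is a shallow gradient. It held 44.7% to 44.9% of those of Car9, 63.6% to 65.6% of those of Adm and 75.4% to 78.9% of those of Ndrg1. Such a share also depends on the mean count of the gene. For Ankrd37, with a mean of 0.16 to 0.17 thinned UMIs per cell against 0.27 to 0.28 for Ndrg1, it was 81.7% to 87.5%. Squared variation above counting noise was ranked among all genes with a mean of at least 0.1 thinned UMIs in the same cells, whatever their level, so that genes of unequal level share a ranking. Ndrg1 ranked at the percentile 99.7 to 99.8 and Adm at 99.2 to 99.4, whereas Ldha ranked at 53.3 to 55.7 and Pgk1 at 57.0 to 59.2. The glycolytic enzymes thus varied about as much as the median gene, and Ndrg1 more than nearly every gene ranked. A cell most often held 2 to 4 of the 10 genes after thinning. Cells with 9 genes numbered 67, 39 and 93 in shMib2 replicate 1, shMib2 replicate 2 and shCtrl, and cells with all 10 numbered 1, 0 and 1.

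The genes varied together from cell to cell. Correlations were taken within each library over its melanoma cells, thinned to equal depth, and are given as means of the 3 libraries. Points share a library and 5000 UMIs each, and sparse counts hold the values of rare genes low. The closest pair was Car9 with Bnip3 (r = 0.57, from 0.56 to 0.60 by library), followed by Ldha with Pgk1 (0.56), Pgk1 with Bnip3 (0.55) and Car9 with Pgk1 (0.52). Vegfa was nearest to Bnip3 (0.44) and Ndrg1 nearest to Bnip3 and Vegfa (0.36 each). Adm and Ankrd37 had their highest values with Bnip3, at 0.29 and 0.28. Egln3, seen in so few cells, stayed between 0.01 and 0.04 with all other genes.

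**Figure D2:**
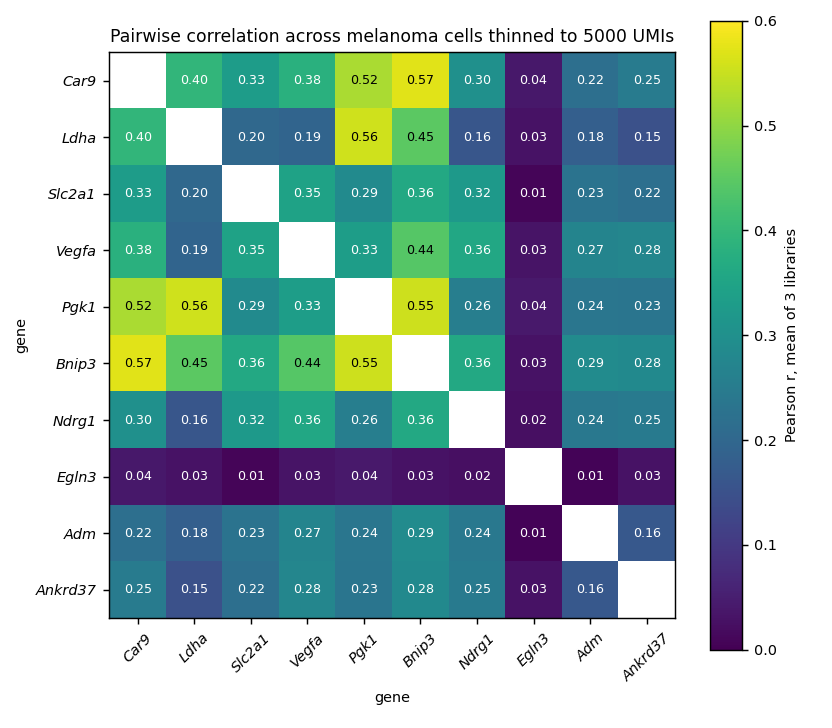
Pearson r between pairs of the 10 genes across melanoma cells thinned to 5000 UMIs, as the mean of the 3 libraries, with colour and number giving r. Car9, Ldha, Pgk1 and Bnip3 form the closest group (0.40 to 0.57), and Egln3 is near 0 with every gene.

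Genes outside the list with the most similar pattern were found by correlating 5348 genes with the mean standardized level of the 10, and ranked by the lowest r of the 3 libraries. Ero1l, an oxidase of the endoplasmic reticulum that helps form disulfide bonds, was nearest (lowest r = 0.72). Higd1a, a small mitochondrial protein induced by hypoxia, followed at 0.71, and the glycolytic enzyme Gapdh at 0.65. Bsg, the partner of lactate transporters at the membrane, reached 0.58, Fam162a 0.57, the pyruvate kinase Pkm 0.54, the mitophagy receptor Bnip3l 0.54 and Egln1, the main prolyl hydroxylase of HIF, 0.53. Against Car9 alone the order was Higd1a (0.58), Ero1l (0.56), Gapdh (0.53), Bsg (0.52) and Fam162a (0.51).

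To test whether the genes rise together, melanoma cells of each library were divided by whether the thinned cell held a Car9 UMI, and the sums of both sides were compared within library. Cells with Car9 numbered 2831, 1627 and 3600 in shMib2 replicate 1, shMib2 replicate 2 and shCtrl, against 3081, 1852 and 3809 without. All 9 other genes were higher in cells with Car9, where 25.2% of 12222 genes were called higher and 22.0% lower. The side with Car9 had a lower depth before thinning, with medians of 22973, 40048 and 24201.5 UMIs, against 26676, 46730.5 and 28251 UMIs without, and both sides had about 4% of mitochondrial UMIs. The part of cell size or depth in the result was not tested beyond the thinning.

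Ndrg1 differed most. It was at 93.8, 97.6 and 88.2 CPM in cells with Car9, against 20.9, 20.4 and 19.8 CPM in cells without, in the order shMib2 replicate 1, shMib2 replicate 2 and shCtrl, and its log2 fold change was 2.26 (SE 0.05). The Poisson intervals of the summed levels did not overlap between the sides in any library. The cells themselves did overlap, since most cells on both sides held no Ndrg1 UMI after thinning. Ndrg1 was found in 25.9%, 26.2% and 26.1% of cells with Car9, against 7.72%, 6.97% and 7.51% of cells without, in the same order. Ankrd37 was at 51.9, 53.0 and 54.4 CPM with Car9, against 13.3, 13.9 and 15.3 CPM without (log2 fold change 1.97, SE 0.06). Bnip3 was at 564, 599 and 562 CPM with Car9, against 159, 138 and 166 CPM without (1.94, SE 0.03). The ratio was 3.56, 4.33 and 3.39 in the 3 libraries.

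The secreted factors differed nearly as much. Vegfa was at 224, 200 and 172 CPM in cells with Car9, against 64.7, 57.6 and 52.2 CPM in cells without (log2 fold change 1.84, SE 0.03). The lower Vegfa of the library labelled shCtrl was seen on both sides. Adm was at 126, 131 and 117 CPM with Car9, against 50.0, 50.2 and 48.8 CPM without (1.39, SE 0.04). Both ligands act on vessel cells, and their receptors are described further on.

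Genes of glucose use were higher too. The transporter Slc2a1 was at 129, 128 and 131 CPM with Car9, against 41.8, 40.1 and 46.0 CPM without (log2 fold change 1.66, SE 0.04). The enzymes moved less. Pgk1 was at 3336, 3355 and 3448 CPM with Car9, against 2003, 1940 and 2139 CPM without (0.81, SE 0.02), and Ldha at 2951, 2828 and 2959 CPM, against 1976, 1867 and 2049 CPM (0.64, SE 0.02). Egln3 was at 1.55, 1.48 and 1.22 CPM with Car9, against 0.649, 0.432 and 0.630 CPM without (1.29, SE 0.34, adjusted p = 0.001), the widest error of the 9, and the adjusted p of the other 8 genes was below that of Egln3.

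**Figure D3:**
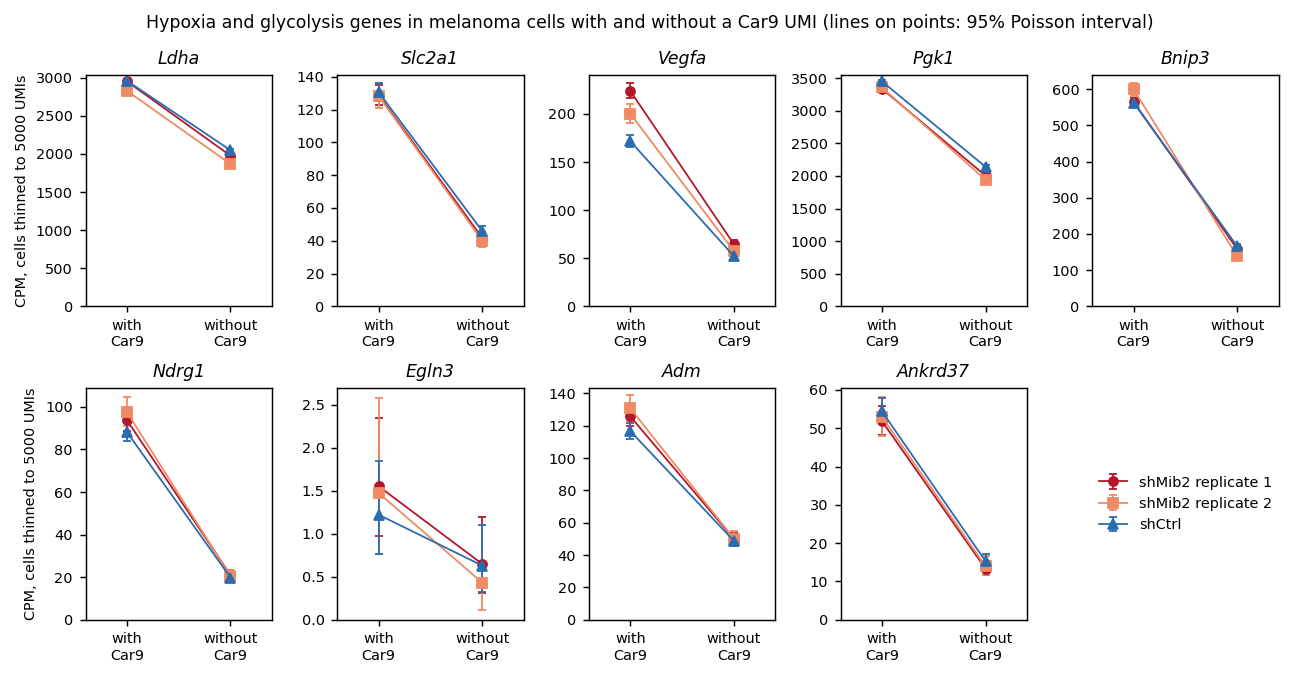
Level in CPM (axes from 0) of 9 genes in melanoma cells with and without a Car9 UMI after thinning to 5000 UMIs, with 1 line per library and 95% Poisson intervals. In every library and for every gene the cells with Car9 are higher, and for Egln3 the intervals are wide and overlap in all 3 libraries.

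The levels also climbed with the number of Car9 UMIs in the cell. In shMib2 replicate 1, Bnip3 was at 158.7 CPM with 0 Car9 UMIs, 379.8 with 1, 561.6 with 2 and 756.9 with 3 or more. In shMib2 replicate 2 the steps were 138.3, 414.2, 578.3 and 791.7 CPM, and in shCtrl 165.8, 373.3, 558.0 and 755.3 CPM. The steps of Bnip3 were much alike in the 3 libraries. Ldha flattened, at 1976, 2676, 3116 and 3143 CPM in shMib2 replicate 1 and 2049, 2723, 2999 and 3173 CPM in shCtrl, whereas Ndrg1 did not, at 20.9, 50.9, 93.9 and 138.2 CPM and 19.8, 50.9, 88.9 and 125.5 CPM. All of the genes but Egln3 rose at each step in each of the 3 libraries. As the Car9 counts choose the cells, the steps are a description without a test.

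**Figure D4:**
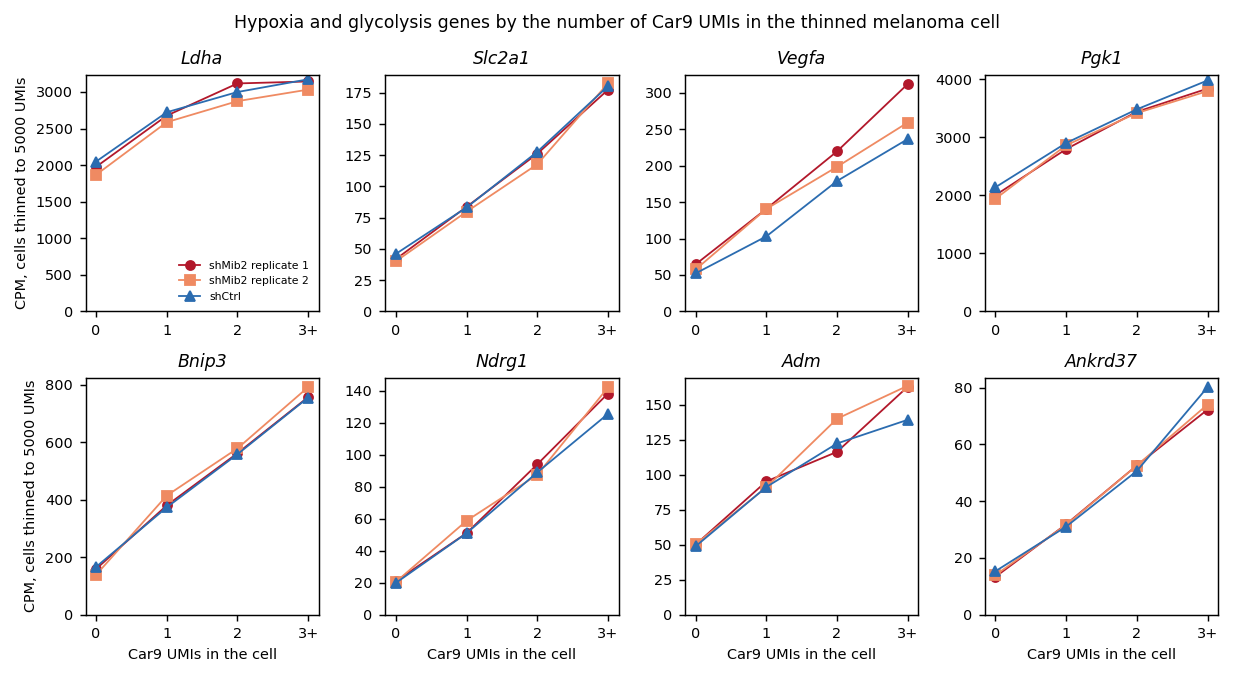
Level in CPM (axes from 0) of 8 genes in thinned melanoma cells with 0, 1, 2 and 3 or more Car9 UMIs, with 1 line per library. All 8 genes rise at each step, and Ldha flattens at 3 or more (3143 CPM in shMib2 replicate 1, against 3116 CPM at 2).

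The wider programs were read in the same split, as counts beside the median of all tested genes, 0.01. Of 22 glycolysis genes 19 were higher with Car9 and 1 lower, with a median log2 fold change of 0.85. Among those higher were the hexokinase Hk2 at 1.21 (SE 0.03), the isomerase Gpi1 at 0.87 (SE 0.02), the phosphofructokinase Pfkp at 1.17 (SE 0.03) and Gapdh at 0.71 (SE 0.02), while the dehydrogenase subunit Ldhb, which favours the return of lactate to pyruvate, was lower at -0.12 (SE 0.02). Of 20 tested of 24 other hypoxia-induced genes 18 were higher and 0 lower (median 1.18), led by Ero1l at 2.42, Higd1a at 1.51, Fam162a at 1.22 and Hilpda, a lipid droplet protein, at 1.88. Among HIF and its regulators 6 of 8 tested genes were higher and 1 lower. Egln1 was at 1.497 (SE 0.03), Vhl, which recognizes hydroxylated HIF, at 0.99 (SE 0.06), Cited2, an inhibitor of HIF, at 0.52 (SE 0.02) and Hif1a at 0.39 (SE 0.03), and Egln2 was lower at -0.18 (SE 0.06).

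Other programs moved less or the opposite way. All 14 cell cycle genes were lower with Car9, with a median of -0.47, such as Tyms, which makes thymidylate, at -0.72 (SE 0.04), and the ribonucleotide reductase subunit Rrm2 at -0.60 (SE 0.03). Of 10 tested respiratory chain genes 8 were lower and 1 higher (median -0.17), with Sdhb at -0.31 (SE 0.02) and Ndufa4 at -0.16 (SE 0.02). Of 9 tested integrated stress genes 8 were higher and 0 lower (median 0.54), with the transcription factor Atf3 at 1.32 (SE 0.08). Among carbonic anhydrases and pH genes the lactate exporter Slc16a3 was the 1 higher of 7 tested, at 1.08 (SE 0.03), and Car6 and Car14 were the 2 lower ones. Of 8 melanin genes 3 were higher and 2 lower. In both of these lists genes were called in both directions, as among all genes (25.2% higher and 22.0% lower), and nothing is read from the counts. Espn, an actin-bundling protein, and the transcription factor Prdm16 were also higher with Car9, by 2.75 (SE 0.04) and 0.98 (SE 0.03).

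A split that did not use Car9 gave the same directions. Cells with a UMI of Egln3, Ankrd37 or Adm numbered 1969, 1128 and 2460 in shMib2 replicate 1, shMib2 replicate 2 and shCtrl, and all 7 remaining genes were higher in them, where 19.0% of 11936 genes were called higher and 17.5% lower. Car9 was at 370, 369 and 373 CPM in these cells, against 179, 172 and 186 CPM in the rest (log2 fold change 1.10, SE 0.02). Its level differed by about the same amount in each library. Ndrg1 was at 109, 116 and 96.6 CPM in cells with these genes, against 29.4, 28.0 and 31.4 CPM without (1.86, SE 0.04), and Vegfa at 240, 225 and 188 CPM, against 91.3, 75.9 and 71.7 CPM (1.48, SE 0.03). Slc2a1 followed at 1.28 (SE 0.04) and Bnip3 at 1.15 (SE 0.02), and Pgk1 and Ldha were again the smallest, at 0.49 (SE 0.01) and 0.36 (SE 0.01). Both splits share cells, so the second is not a separate sample. Its lists gave 19 of 22 glycolysis genes higher and 1 lower, 18 of 20 other hypoxia-induced genes higher and 0 lower, and 0 of 14 cell cycle genes higher and 13 lower.

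Clusters of melanoma cells, built without the 10 genes and the lists, differed in the same way, as a description. Car9 was highest in a cluster with Espn and Syt4 among its leading genes, at 660, 642 and 662 CPM in shMib2 replicate 1, shMib2 replicate 2 and shCtrl, and in a cluster with Espn, Sox11 and Prdm16 among its leading genes, at 458, 468 and 495 CPM. It was lowest in a cluster led by Car6 and Dct, at 72.6, 65.6 and 57.4 CPM. Ndrg1 was highest in the cluster with Espn, Sox11 and Prdm16, at 258, 310 and 239 CPM.

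The last comparisons set the melanoma cells against the other cells of the same tumors, within library. Free RNA of the abundant melanoma cells also reaches other droplets, so the level that melanoma RNA alone would leave in each class was computed from its share of Dct and Pmel. That share was 4.23%, 2.58% and 4.62% of the melanoma level in T cells, 3.55%, 3.02% and 3.35% in myeloid cells and 7.59%, 1.72% and 8.69% in stromal cells, in the order shMib2 replicate 1, shMib2 replicate 2 and shCtrl. UMIs tag molecules, and lower RNA per cell cannot be told apart from fewer expressing cells in such sums. The myeloid cells of the library labelled shCtrl, 12 in number, were below the minimum of 20 and stayed out of the test, so that 2 myeloid sums stand against 3 of each other class. The scaling matters here, since the median log2 fold change of all genes was 0.15, 0.24 and 0.05 against T, myeloid and stromal cells with TMM, and 0.003, -0.05 and -0.17 with the size factors of DESeq2.

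Car9 marked the tumor cells in all 3 comparisons. It was called higher in melanoma cells than in T cells, myeloid cells and stromal cells, by log2 fold changes of 3.90 (SE 0.25), 3.84 (SE 0.35) and 3.57 (SE 0.20). In T cells it was at 18.5, 8.82 and 6.70 CPM, where melanoma RNA alone would leave 9.04, 5.27 and 9.88 CPM, and in myeloid cells of the libraries labelled shMib2 at 15.5 and 9.58 CPM, where it would leave 7.59 and 6.16 CPM. Among stromal cells it was at 21.3, 10.0 and 59.7 CPM, against 16.2, 3.52 and 18.6 CPM left by melanoma RNA. In myeloid cells of the library labelled shCtrl, 2 UMIs gave 72.8 CPM, against 7.16 CPM. The measured level lay below that of carried-over RNA in T cells of the library labelled shCtrl and above it in the other sums.

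Over the 10 genes, 8 were called higher in melanoma than in T cells, where 35.4% of 12577 genes were called higher, and 1 lower, where 31.6% were. Adm was at 80.2, 78.4 and 75.8 CPM in melanoma cells, against 7.26 and 3.39 CPM in T cells in libraries labelled shMib2 and no UMI in the 80 T cells in the library labelled shCtrl, which allows up to 20.1 CPM (log2 fold change 3.93, SE 0.24). Bnip3 had 37.1, 29.5 and 46.9 CPM in T cells (2.96, SE 0.27), and Vegfa had 20.96 and 8.14 CPM in T cells in libraries labelled shMib2 and no UMI in the library labelled shCtrl (2.98, SE 0.34). Ldha was present in T cells too, at 931, 792 and 864 CPM (1.27, SE 0.14), and Pgk1 was at 497, 365 and 469 CPM (2.33, SE 0.22). Melanoma RNA would leave 101, 59.4 and 114 CPM of Ldha and 108, 64.6 and 123 CPM of Pgk1 in T cells, below the measured levels. Slc2a1 was higher by 0.67 only (SE 0.24, adjusted p = 0.019), a call that was lost when shMib2 replicate 2 was left out (0.61, adjusted p = 0.074) and by DESeq2 (0.69, adjusted p = 0.135). Ankrd37 was not called (0.06, SE 0.24), at 28.2, 17.3 and 40.2 CPM in T cells. Egln3 was lower in melanoma cells (-2.99, SE 0.65), at 4.03 and 7.12 CPM in T cells in libraries labelled shMib2 and no UMI in the library labelled shCtrl. Without shMib2 replicate 2 this call was lost as well (-2.22, adjusted p = 0.071).

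T cell clusters differed in Ldha. It was at 577, 490 and 529 CPM in the largest T cell cluster, 1154, 1065 and 1091 CPM in a cluster with Pdcd1 and Cd8a among its leading genes, and 1617, 1274 and 2166 CPM in a cluster led by Tnfrsf4 and Ctla4. The order was the same in the 3 libraries, though the last 2 clusters held 7 cells each in the library labelled shCtrl. NK cells had Vegfa at 115, 133 and 107 CPM, where melanoma RNA would leave 6.61, 3.43 and 4.58 CPM, against 127, 109 and 95.4 CPM in melanoma cells. No test was run on NK cells.

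Against myeloid cells the genes fell on both sides, with 5 called higher and 4 lower in melanoma cells, where 28.9% of genes were called higher and 26.8% lower (3634 and 3370, against 2478 and 3703 by DESeq2). Besides Car9, the genes higher in melanoma cells were Adm (log2 fold change 2.41, SE 0.28), Pgk1 (1.60, SE 0.25), Bnip3 (1.09, SE 0.28) and Ldha (0.98, SE 0.16). Egln3 was lower in melanoma cells by -5.64 (SE 0.55), with 24.4 and 39.2 CPM in myeloid cells in libraries labelled shMib2, and 72.8 CPM from 2 UMIs in the library labelled shCtrl. Ndrg1 was at 162 and 130 CPM in myeloid cells in libraries labelled shMib2, so that it was lower in melanoma cells (-1.98, SE 0.31), and Ankrd37 was at 86.5 and 40.9 CPM (-1.39, SE 0.27). Slc2a1 was at 144 and 119 CPM in myeloid cells in libraries labelled shMib2 (-1.20, SE 0.25). Vegfa was not called (-0.05, SE 0.29), at 122 and 74.9 CPM. Of the 4 genes called lower, melanoma RNA would leave at most 2.58 CPM in the myeloid cells in libraries labelled shMib2. By DESeq2 the call of Bnip3 was lost (0.90, adjusted p = 0.061).

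The myeloid clusters are described without a test. All of the Egln3 UMIs, 11, 45 and 2 in shMib2 replicate 1, shMib2 replicate 2 and shCtrl, lay in 1 cluster. It was named for mononuclear phagocytes and led by Lyz2, Il1b and Cxcl2. The neutrophil markers S100a8 and S100a9 were also among its leading genes, and whether it held neutrophils was not tested. In this cluster Slc2a1 was at 286, 164 and 363 CPM, Ndrg1 at 286, 156 and 136 CPM, and Vegfa at 248, 104 and 273 CPM. In the cluster of dendritic cells with Xcr1, Slc2a1 was at 4.64 and 24.8 CPM and Vegfa at 9.28 and 3.54 CPM in libraries labelled shMib2, and Ndrg1 at 51.0 and 70.7 CPM. Ldha was spread over the clusters, at 1087 and 890 CPM in mononuclear phagocytes with Il1b, 826 and 898 CPM in dendritic cells and 1189 and 1202 CPM in the cluster led by complement genes, in libraries labelled shMib2. That last cluster, led by C1qb and C1qa, had a median of under 1000 UMIs per cell and no Egln3 UMI. Set against only the clusters named for mononuclear phagocytes, Vegfa was called lower in melanoma cells (-0.52, adjusted p = 0.015).

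Against stromal cells 4 genes were called higher and 3 lower in melanoma cells, where 34.6% of genes were called higher and 34.7% lower (4348 and 4364, against 2607 and 4430 by DESeq2). Those higher were Car9, Pgk1 (log2 fold change 1.76, SE 0.22), Bnip3 (1.46, SE 0.23) and Ldha (1.22, SE 0.14). Adm was at 199, 156 and 161 CPM in stromal cells, against 80.2, 78.4 and 75.8 CPM in melanoma cells (melanoma minus stromal -1.20, SE 0.10). Egln3 was at 12.8, 6.17 and 64.3 CPM in stromal cells (-3.83, SE 0.46), and Ndrg1 at 129, 83.2 and 381 CPM (-1.51, SE 0.22). Slc2a1 (-0.40, adjusted p = 0.059), Ankrd37 (0.45, adjusted p = 0.061) and Vegfa (-0.07, adjusted p = 0.781) were not called. Slc2a1 was called lower without shMib2 replicate 1 (-0.81) or without shMib2 replicate 2 (-0.98), and Ankrd37 was called higher without shCtrl (0.61).

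Stromal values of the library labelled shCtrl stood above those in libraries labelled shMib2 for all of the genes but Adm, and the mix of stromal clusters moved with this. Of its 26 stromal cells 21 lay in a cluster with Bgn, Col1a1, Col1a2, Acta2 and Tagln among its leading genes. The fibroblast markers were the best match of this cluster too. It took 65 of 322 and 82 of 301 stromal cells in shMib2 replicates 1 and 2. In that cluster Ndrg1 was at 602, 314 and 529 CPM, Slc2a1 at 390, 317 and 370 CPM, Vegfa at 427, 324 and 384 CPM and Egln3 at 78.5, 35.1 and 92.6 CPM, and there the library labelled shCtrl stood above both others in Bnip3 (343 and 258 CPM in the libraries labelled shMib2, against 410 CPM in shCtrl), Car9, Pgk1, Egln3 and Adm, but not in Ndrg1, Slc2a1, Vegfa, Ldha or Ankrd37. The part of the cluster mix in the stromal values was not tested. In the other cluster matched to fibroblasts, led by Col1a2 and Col3a1, Ndrg1 was at 55.0 and 43.6 CPM and Slc2a1 at 34.1 and 28.3 CPM in libraries labelled shMib2. Adm was present in both, at 152, 205 and 231 CPM in the cluster with Acta2. In the cluster led by Col1a2 and Col3a1 it was at 206 and 148 CPM in libraries labelled shMib2. There the 5 shCtrl cells held no UMI and allow up to 45.1 CPM. With only the cluster led by Col1a2 and Col3a1 as the stromal class, Slc2a1 and Vegfa were called higher in melanoma cells (1.14 and 1.08). Ndrg1 and Egln3 were not called in this fit (-0.11 and -0.96). The cluster with Acta2, also matched to fibroblasts, was left out of it. The 5 shCtrl cells were below the minimum number of cells and stayed out as well.

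**Figure D5:**
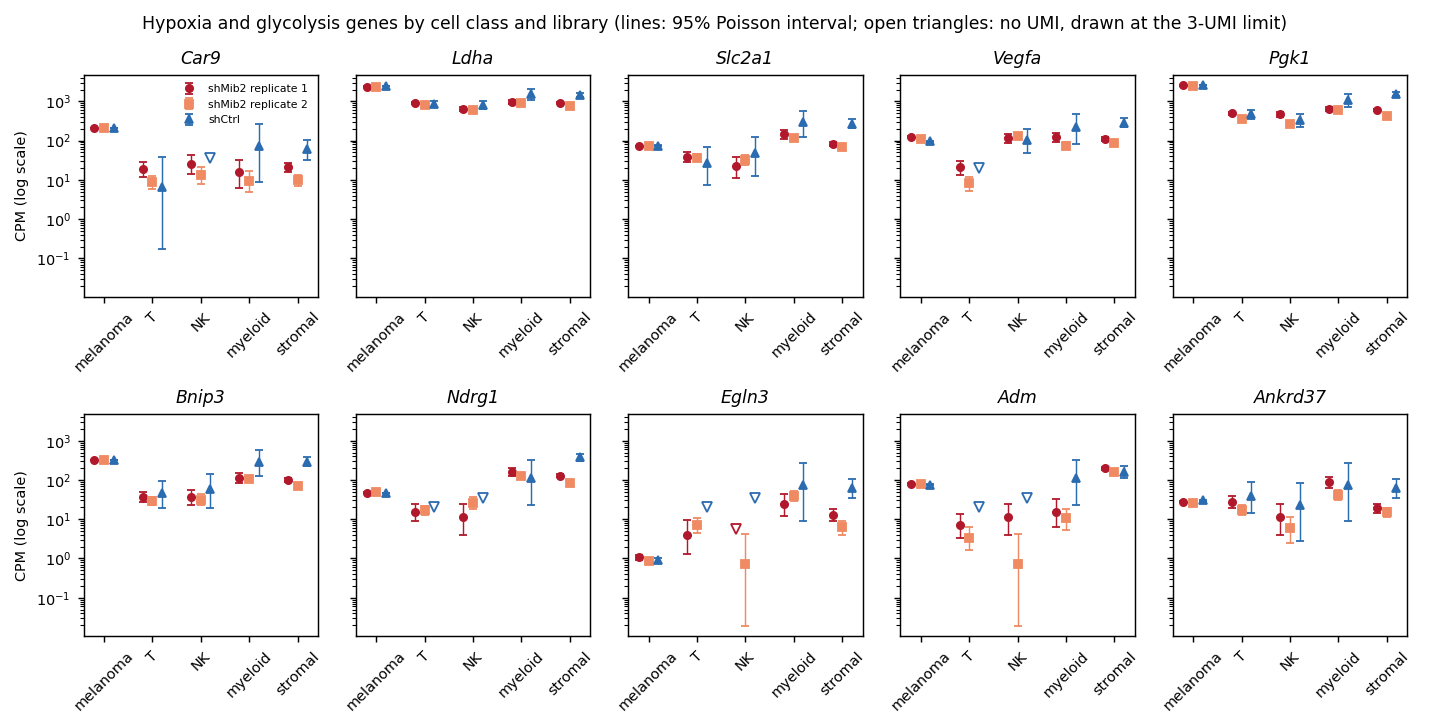
Level of each gene in CPM on a log axis, in melanoma, T, NK, myeloid and stromal cells of shMib2 replicate 1, shMib2 replicate 2 and shCtrl, with 95% Poisson intervals. Open triangles mark libraries with no UMI, drawn at the level of 3 UMIs. Car9 is highest in melanoma cells, and Egln3 is highest in myeloid cells. Stromal cells come next for Egln3, except in shMib2 replicate 2 (6.16 CPM, against 7.12 CPM in T cells). Intervals of shCtrl are wide outside melanoma cells.

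Receptors of the secreted factors were read in the same comparison. Of 8 receptor genes for Vegfa and Adm, 7 were lower and 1 higher in melanoma than in stromal cells, where 34.7% of all genes were called lower and 34.6% higher. Kdr, the main signalling receptor of Vegfa, was at 10.3, 15.7 and 59.7 CPM in stromal cells, and Flt1, a decoy-like receptor, at 31.2, 38.5 and 96.4 CPM. No cluster was named for endothelial cells, and both stromal clusters matched fibroblasts best, so vessel cells were not read apart. The stromal values of the library labelled shCtrl rest on 26 cells. Calcrl, the Adm receptor that works with Ramp proteins, was at 0.5, 0.4 and 0.4 CPM in melanoma cells, against 15.3, 17.7 and 36.7 CPM in stromal cells. The exception was the coreceptor Nrp2, at 104, 96.6 and 94.1 CPM in melanoma cells, against 21.7, 18.0 and 50.5 CPM in stromal cells.

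In T cells, no difference between shMib2 and shCtrl was called in these genes. Of the 10 genes 8 could be tested, all but Adm and Egln3, and 0 were called by edgeR or DESeq2, where 0.501% of 8588 genes were called. Ldha was at 931 and 792 CPM in T cells in libraries labelled shMib2, against 864 CPM in the library labelled shCtrl (log2 fold change -0.10, SE 0.15), and Pgk1 at 497 and 365 CPM, against 469 CPM (-0.22, SE 0.20). Ndrg1 was among the genes not called. It was at 15.3 and 17.0 CPM in libraries labelled shMib2, against no UMI in the library labelled shCtrl, which allows up to 20.1 CPM, so no fold is given. With 80 T cells in the library labelled shCtrl, differences of this size were not detectable. Myeloid, NK and stromal cells were not tested between libraries, since shCtrl held under 50 cells of each.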

How the data were processed

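From the matrix headers and the labels, Cell Ranger 4.0.0 aligned reads of 10x 5′ libraries to mm10, and what the authors deposited are raw counts of UMIs in each gene and called cell barcode, not normalized. The annotation version is not given in the sources used here. The 10 genes and the gene lists were chosen with earlier results of these data known.

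A barcode was kept if it held 200 genes or more and no more than 20% of its UMIs were mitochondrial (8568, 7283 and 8817 barcodes in shMib2 replicate 1, shMib2 replicate 2 and shCtrl). Doublets, scored against simulated ones at 0.8% per 1000 barcodes, were removed (646, 489 and 674). Log values at 10000 UMIs per cell of 2000 variable genes, with the 10 genes and the lists left out, gave 30 principal components and Leiden clusters (resolution 1, 20 neighbors, leidenalg 0.10.2). Clusters were named by markers, and those with at least 0.2% of Dct and Pmel, a threshold set after seeing the data, were melanoma.

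UMIs were summed per library and class and tested with edgeR 4.0.16 in R 4.3.3 (TMM, filterByExpr, quasi-likelihood test, Benjamini-Hochberg over all genes, threshold 0.05), with library as a block in comparisons within libraries. No test for single cells is given in the sources used here. Each library pools 3 mice, so p-values measure the spread between libraries. DESeq2 1.42.0, other filters, cell rules, depths and left-out libraries were alternatives. Tests were tried on simulated counts. Named list genes are up to 4 with the lowest p among those called; Ldhb, Egln2 and Nrp2, the exceptions in their lists, were named after their values were seen. Where no UMI was seen, the level of 3 UMIs is given as the limit. Coordinates are those of GRCm38.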

Additional observations from a re-analysis of the deposited data

How the results depend on the processing

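The number of called genes among the 10 stayed within 1.5 times of its value in every alternative run, which was 0 between the libraries in melanoma cells and in T cells. Both splits of melanoma cells kept every direction and call, apart from Egln3 in the Car9 split, which has no adjusted p by DESeq2. No paired analysis was possible because the library labelled shCtrl has no replicate number that pairs it with either library labelled shMib2. Without the replicate block of library, 9 and 7 genes were called in the Car9 split and the split on Egln3, Ankrd37 or Adm, and 8, 9 and 7 against T, myeloid and stromal cells. Directions turned only in differences that were not called with the settings of the report. Between libraries in melanoma cells, Ndrg1 was at -0.036 with Dct and Pmel of at least 1% and at -0.011 without a cell filter, where Egln3 was at -0.00079 and Adm at -0.0077. In T cells thinned to 1000 UMIs, Ldha was at 0.19 and Slc2a1 at -0.10. Against T cells, Ankrd37 was at -0.13 by DESeq2, and leaving out each library in turn gave -0.42 (without shMib2 replicate 2) to 0.11. Against stromal cells, it was at -0.026 by DESeq2, and leaving out each library gave -0.046 (without shMib2 replicate 2) to 0.61 (without shCtrl). Vegfa ranged from -0.50 (without shMib2 replicate 2) to 0.036 (without shCtrl) against myeloid cells, and from -0.66 (without shMib2 replicate 2) to 0.20 (without shCtrl) against stromal cells. Against only the stromal cluster led by Col1a2 and Col3a1, Slc2a1 was at 1.14 (adjusted p = 2.2e-09) and Vegfa at 1.08 (adjusted p = 3.9e-09). The cause was not tested.

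Counts over all genes moved more. In melanoma cells between libraries, 75 genes were called, against 263 by DESeq2, 260 without a cell filter, 16 with at least 50 UMIs and 0 without a filter (2419 at an unadjusted p under 0.05). In T cells 43 were called, against 6 by DESeq2, 99 without a filter, 134 with doublets kept and 20 when thinned. The Car9 split called 5766 genes, against 3651 without the replicate block and 2989 by DESeq2, and the other split 4349, against 1992 and 1752. Against T, myeloid and stromal cells 8422, 7004 and 8712 were called, against 4526, 3319 and 3477 when thinned to 1000 UMIs and 4934, 3478 and 5024 without shMib2 replicate 2. The 12 myeloid, 26 stromal and 80 T cells of the library labelled shCtrl limit every comparison that uses them.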
